A study of Caenorhabditis elegans with 2 samples.

Results

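Cell corpse engulfment genes are described here by the binding sites of MCD-1 recorded at and around them in whole Caenorhabditis elegans. The members were 10 genes, taken by name from the Ensembl gene models, of 19973 protein-coding genes in all: ced-1, ttr-52, ced-7, ced-6, psr-1, ced-2, ced-5, ced-12, ced-10 and abl-1. Every peak within 2000 bp of each gene was taken from 8 deposited lists, 4 limited to an irreproducible discovery rate (IDR, the expected share of peaks that do not repeat) of 0.01 and 4 longer ranked lists behind them. The data are ChIP-seq (sequencing of DNA precipitated with a chromatin protein) of 2 biological replicates of strain RW12215, genotype st12215[mcd-1::TY1::EGFP::3xFLAG] II, in which CRISPR editing placed the tag in the endogenous mcd-1 gene on chromosome II. The animals were young adults of 65 hours, synchronised by starving L1 larvae after bleaching, and the precipitation used an antibody against GFP according to the sample descriptions, while the labels' antibody field names mcd-1. Both replicates carry the same allele and form 1 group, and no control sample was used here, so the data compare no conditions. Whole animals were used, so the cells in which a site was bound cannot be told apart.

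In C. elegans a dying cell is swallowed by its neighbours through a pair of partly redundant branches. In the first, the bridging protein TTR-52 and the receptor CED-1 recognise phosphatidylserine on the corpse, with the ABC transporter CED-7, and the adaptor CED-6 carries the signal inward. In the second, CED-2 (CrkII), CED-5 (DOCK180) and CED-12 (ELMO) activate the Rac GTPase CED-10, which remodels actin, and the phosphatidylserine receptor homologue PSR-1 acts upstream of them. The kinase ABL-1 inhibits engulfment. MCD-1, whose gene name stands for modifier of cell death, has zinc fingers.

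The letters under the member peaks are shown first, because the positions below refer to them. All are from RefSeq's WBcel235, the assembly of ce11, on the strand of the named gene. Capitals mark the motif GAGCG, the motif TTTGAA, or the 12-letter run ACTCCTCTCGGA, each on either strand. The first sequence is the whole peak between ced-5 and its divergent neighbour F01D4.5 (chrIV:10483799-10483964). The second is the whole abl-1 promoter peak (chrX:10624262-10624459). The third holds 50 bp to each side of the summit upstream of ced-2 (chrIV:1595936-1596036) and the fourth the same for the weaker site upstream of psr-1 (chrIV:4652639-4652739), shown as an example with none of these runs.
ced-5: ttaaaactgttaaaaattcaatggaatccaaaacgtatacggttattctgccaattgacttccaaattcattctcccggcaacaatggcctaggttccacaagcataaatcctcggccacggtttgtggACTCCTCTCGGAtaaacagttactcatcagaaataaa
abl-1: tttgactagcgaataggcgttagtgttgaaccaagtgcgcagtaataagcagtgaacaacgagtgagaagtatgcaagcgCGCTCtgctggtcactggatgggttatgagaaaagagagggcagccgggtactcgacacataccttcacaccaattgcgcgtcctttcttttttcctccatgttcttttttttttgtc
ced-2: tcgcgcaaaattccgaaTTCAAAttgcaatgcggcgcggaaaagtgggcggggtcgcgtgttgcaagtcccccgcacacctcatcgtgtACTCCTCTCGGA
psr-1: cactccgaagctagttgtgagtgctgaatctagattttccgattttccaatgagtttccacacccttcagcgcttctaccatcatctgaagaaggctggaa

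A summit in the promoter window, from 1000 bp before the 5′ end of the gene to 200 bp past it, was recorded at 3 of the 10 genes in the conservative list, which was made from both replicates. They were ced-5, psr-1 and abl-1. The same rule called 13.2% of all protein-coding genes. A conservative peak lay within 2000 bp of the gene at 4 of the 10, ced-2 being the fourth, against 25.4% of all protein-coding genes by that rule. The pooled list, a less strict list of both replicates, gave 3 members in the promoter window (14.4% of all protein-coding genes) and 5 within 2000 bp (27.8%), adding ced-7. Within 2000 bp the replicates' own thresholded lists each gave 4 members, against 23.3% of all protein-coding genes in replicate 1 and 21.4% in replicate 2. With 10 genes, 1 gene more or less moves the share by 10 percentage points, and both counts are given as descriptions without a test. The 4 genes carried 6 conservative peaks, 3 of them at psr-1. No conservative peak lay within 2000 bp of ced-1, ced-6, ced-7, ced-10, ced-12 or ttr-52. They include all 4 members of the receptor branch, and ced-10 and ced-12 of the Rac branch. By the same rule 74.6% of all protein-coding genes had no conservative peak.

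**Figure D1:**
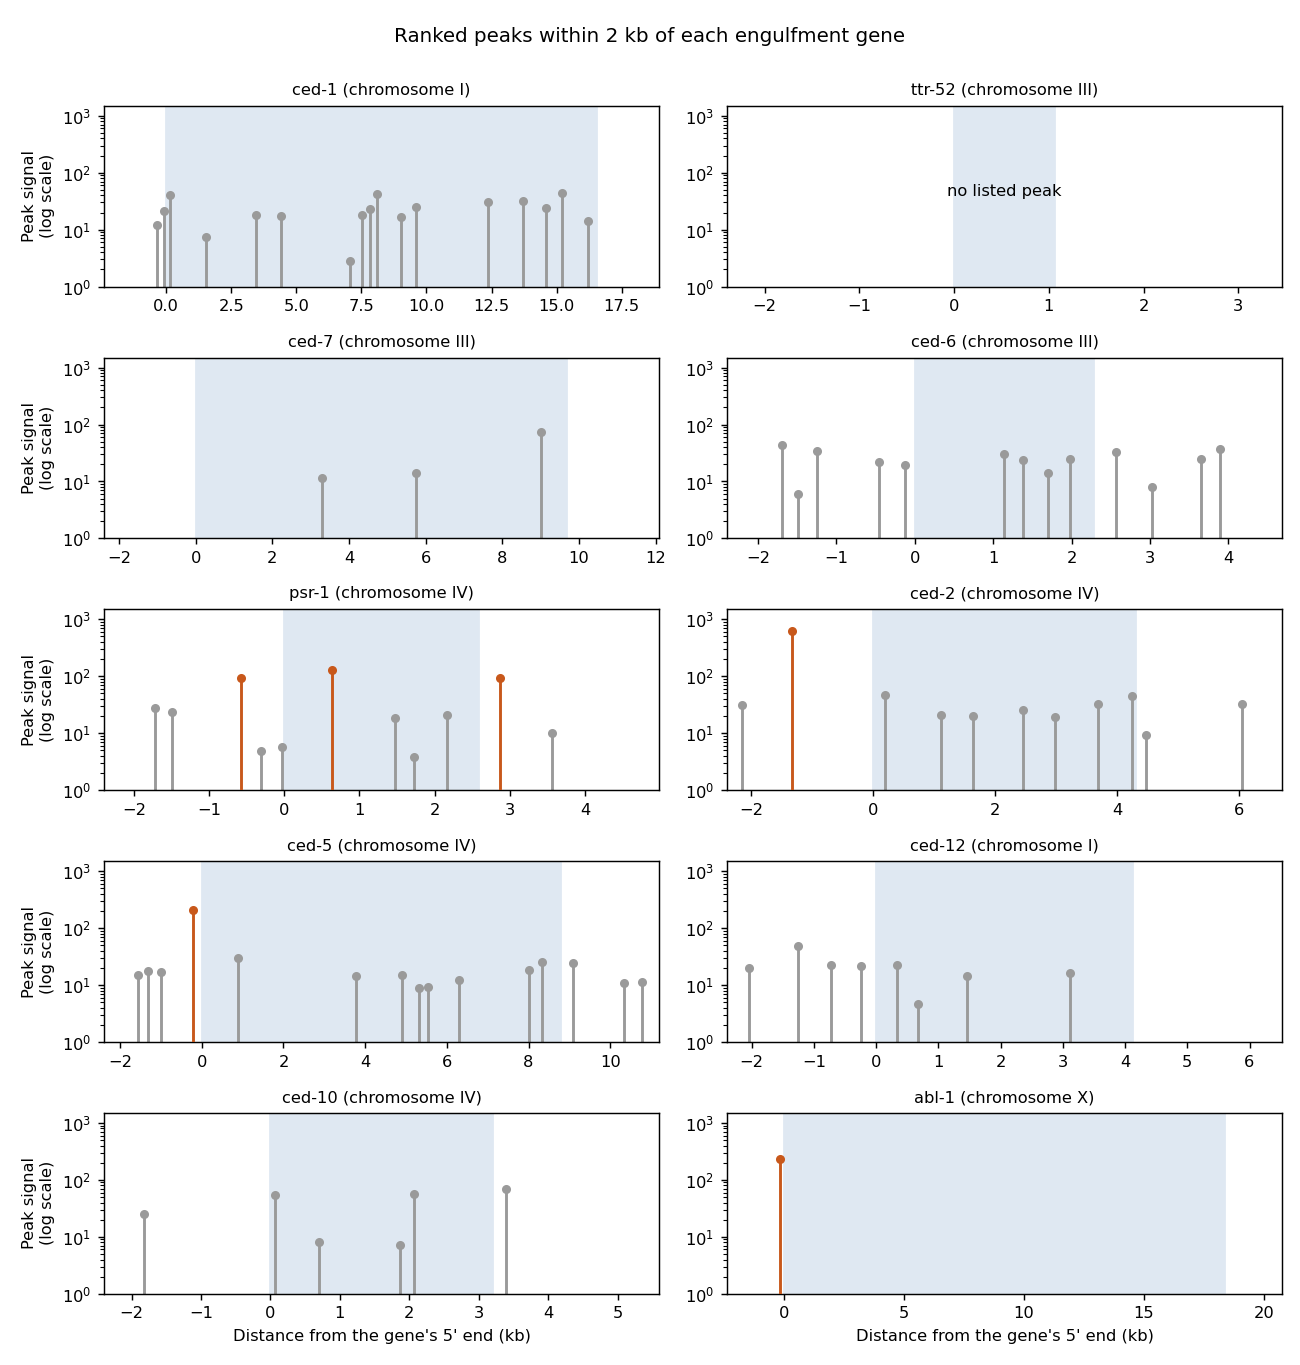
Peaks of the ranked list behind the conservative list within 2 kb of each gene: the horizontal axis gives the distance of the summit from the 5′ end in kb, the vertical axis the deposited signal value on a log scale, and the shaded span is the gene. Orange stems are conservative peaks and grey stems did not reach the IDR threshold; abl-1 has 1 stem in all, ttr-52 none, and ced-1 has 17, none of them orange.

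Signals are given as deposited and as multiples of the median conservative peak of the same replicate, which was 87.3 in replicate 1 and 66.7 in replicate 2. Sequencing depth is unknown, because the lists hold no read counts. The scaling of the deposited signal value is not given in the sources used here.

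In the Rac branch, ced-5 (WBGene00000419, chromosome IV, 10484110 to 10492913, plus strand) encodes the DOCK180 homologue. Its peak had a summit at -226 bp, where negative values lie upstream. The signal was 110 in replicate 1 and 93.5 in replicate 2, or 1.26 and 1.40 times the median peak (mean 1.33 ± 0.0998 SD, n = 2). It ranked 1413 of 3903 by signal and was present in all 4 thresholded lists. The neighbouring gene F01D4.5, on the opposite strand, had its 5′ end 227 bp from the same summit, 1 bp farther than that of ced-5, so distance gives little ground for assigning the peak to either gene. The peak was 166 bp wide, while 53% of conservative peaks had the common width of 370 bp and 15.9% were under 200 bp. The replicates' summits lay 19 bp apart. Around ced-5 the ranked list held 14 further peaks, and the strongest of these had a signal of 29.4, so the promoter peak was 6.98 times stronger than the next.

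ced-2 (WBGene00000416, chromosome IV, 1597318 to 1601621, plus strand) encodes the CrkII adaptor. Its sole conservative peak within 2000 bp was the strongest of the 6. It spanned 1595843 to 1596150 with the summit at -1332 bp from ced-2. Its signal was 334 in replicate 1 and 289 in replicate 2, or 3.82 and 4.34 times the median peak (mean 4.08 ± 0.362 SD, n = 2), at rank 420 of 3903. This summit lay 162 bp upstream of the divergent gene npp-8, which encodes a nucleoporin, and it was in the promoter window of npp-8 and not in that of ced-2. The strongest peak in the promoter window of ced-2 itself, at 194 bp, had a signal of 35.7 in replicate 1 and 15.7 in replicate 2 (0.322 ± 0.123 times the median, n = 2). The overlapping peak of replicate 2 had its summit at 321 bp, outside the window. The −log10 IDR was 0.369, where 2 is the threshold.

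At ced-12 and ced-10 no peak within 2000 bp reached the threshold in any list. ced-12, the ELMO homologue (chromosome I, 10222881 to 10227009, minus strand), had 8 peaks in the ranked list behind the conservative list, with signals from 4.74 to 47.7. The strongest lay at -1249 bp, in an exon of csnk-1, with a −log10 IDR of 0.942, a signal of 29.7 in replicate 1 and no overlapping peak in replicate 2. ced-10, the Rac gene (chromosome IV, 3506328 to 3509527, minus strand), had 6 such peaks with signals from 7.25 to 69.6. The strongest, at 3393 bp and beyond the 3′ end, had a signal of 45.2 in replicate 1 and no overlapping peak in replicate 2. The ced-10 promoter held a peak at 65 bp with signals of 41 and 13.1 (0.470 and 0.196 times the median peak). In both genes the higher values came from replicate 1.

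psr-1 (WBGene00004205, chromosome IV, 4653262 to 4655850, plus strand) encodes the phosphatidylserine receptor homologue, and it carried 3 weak conservative peaks. The first had its summit at -573 bp, in an intron of the upstream gene F29B9.5, with signals of 64.7 and 40.6 (0.675 ± 0.0949 times the median, n = 2). The second lay at 630 bp, in an intron of psr-1, with signals of 80.9 and 50.7 (0.844 ± 0.118). It stood 412 bp upstream of the start of a shorter annotated psr-1 transcript. The third lay at 2870 bp, beyond the 3′ end and in an exon of col-111, with signals of 38.8 and 54.5 (0.630 ± 0.263). All 3 were below the median peak in both replicates, and they ranked 2947, 2248 and 2924 of 3903.

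The replicates' thresholded lists did not hold the same psr-1 sites, although both ranked lists held a peak overlapping each. Replicate 1's own thresholded list held the first and the second site and not the third, and replicate 2's held the third and not the first or the second. The −log10 IDR of the third site was 0.772 in replicate 1. In replicate 2 it was 1.53 at the first site and 1.93 at the second, where 2 is the threshold. The promoter-proximal call at psr-1 is therefore absent from replicate 2's own list, in which 2 of the 10 members had a promoter-proximal summit (10.8% of all protein-coding genes), against 3 in replicate 1's (12.4%). For the first site the 5′ end of F29B9.5 was nearer, at 274 bp. With summits assigned by the closest 5′ end alone, 2 members were called, ced-5 and abl-1, and 9.73% of all protein-coding genes.

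psr-1 is the last of a row of genes on the same strand, each less than 500 bp from the next. Upstream of it stand F29B9.5 (93 bp away), ubc-9, which encodes the SUMO-conjugating enzyme, F29B9.7 and F29B9.8. Of these 4 genes, ubc-9 had a promoter-proximal conservative summit. It lay at -258 bp from ubc-9 and 2476 bp from the 5′ end of psr-1, with values of 2.34 and 1.97 times the median peak (mean 2.16 ± 0.256 SD, n = 2). Both values were above those of each psr-1 peak in either replicate. Whether these genes are transcribed together is not given in the annotation used. The other members with same-strand genes this close upstream were ttr-52 (mig-18 and srlf-10), ced-12 (csnk-1, which overlaps it by 24 bp) and ced-10 (tsg-101, 103 bp away). None of those 4 upstream genes had a promoter-proximal conservative summit. The same rule called 13.2% of all protein-coding genes, so neither count of upstream genes sets a row apart.

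abl-1 (WBGene00000018, chromosome X, 10605827 to 10624207, minus strand) encodes the Abl kinase that inhibits engulfment. Its peak had a summit at -161 bp, with a signal of 151 in replicate 1 and 90.2 in replicate 2, or 1.73 and 1.35 times the median peak (mean 1.54 ± 0.265 SD, n = 2). It ranked 1201 of 3903 and was present in all 4 thresholded lists. The summit lay 161 to 222 bp upstream of the starts of 4 of the 5 annotated transcripts, and 10225 bp upstream of the fifth. No other protein-coding gene had its window at this site. The peak was 198 bp wide, with the replicates' summits 26 bp apart. It was the sole peak of the ranked list in the 22.4 kb searched, a density of 0.0447 per kb against 0.334 per kb over chromosome X and 0.555 over the 6 nuclear chromosomes. The replicates' own ranked lists each added weak peaks, with a second-strongest signal of 22.6 in replicate 1 and 19.4 in replicate 2.

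Ordered by mean multiple, the 6 conservative peaks ran from ced-2 (4.08) through abl-1 (1.54), ced-5 (1.33) and the psr-1 peaks at 630 bp (0.844) and -573 bp (0.675) to that at 2870 bp (0.630). The replicate values of abl-1 and ced-5 overlapped, as did those of the last pair. The values of ced-2 and abl-1 did not overlap, nor did those of ced-5 and the psr-1 peak at 630 bp. Those of the psr-1 peaks at 630 bp and -573 bp did not overlap either. The range of the psr-1 peak at 2870 bp (0.445 and 0.816) did overlap that of the peak at 630 bp (0.927 and 0.760). In replicate 2 the peak at 2870 bp was the stronger of these. With 2 replicates this is a description of their ranges and no test.

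**Figure D2:**
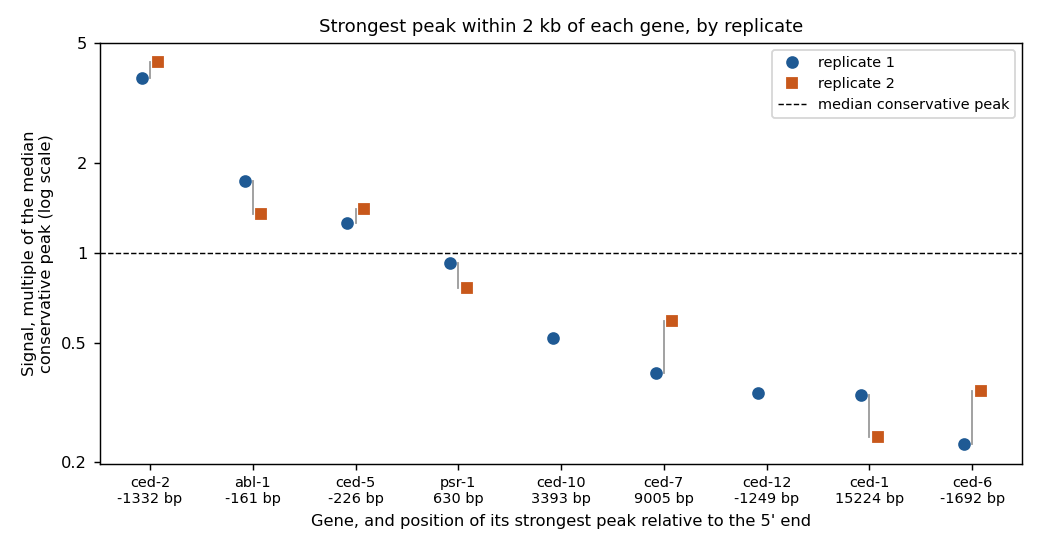
Signal of the strongest ranked peak within 2 kb of each gene, as a multiple of the median conservative peak on a log scale; circles are replicate 1, squares replicate 2, and the dashed line is the median conservative peak. ced-2, abl-1 and ced-5 lie above the line in both replicates, the other 6 genes shown lie below it, and ced-10 and ced-12 have no overlapping peak in replicate 2.

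**Figure D3:**
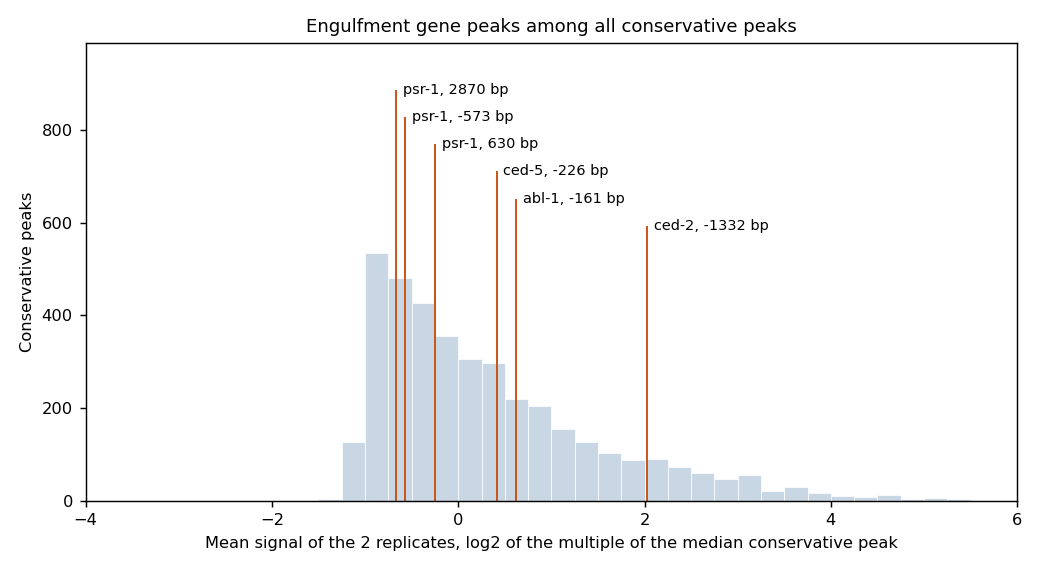
Histogram of the mean multiple of the 3860 conservative peaks with a value in both replicates, on a log2 axis where 0 is the median peak; the vertical axis counts peaks and the vertical lines mark the 6 peaks near engulfment genes. The 3 psr-1 peaks lie left of 0, and the peak of ced-2, which is also that of npp-8, lies farthest right.

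In the receptor branch, the ranked list behind the conservative list held weak peaks within 2000 bp of 3 of 4 genes. By that rule 60.7% of all protein-coding genes had a peak. ced-1 (chromosome I, 11851554 to 11868105, minus strand), the receptor gene, had 17 peaks in the ranked list behind the conservative list, spread along the gene, with signals from 2.76 to 44.1. At its promoter a peak at 131 bp had signals of 24.6 and 21.7 (0.304 ± 0.0301 times the median, n = 2) and a −log10 IDR of 0.970, with the replicates' own summits at 24 and 132 bp. The density of ranked peaks over ced-1 was 0.827 per kb, against 0.727 over chromosome I. ced-6 (chromosome III, 5595771 to 5598061, plus strand), the adaptor gene, had 13, the strongest of which (43.3) lay in an exon of the neighbouring ucr-1, and its promoter window held peaks at -461 bp (22.2) and -131 bp (19.7). In the replicates' own lists the window held 1 peak each, at -560 bp in replicate 1 (28.5) and at -131 bp in replicate 2 (13), so the replicates did not list the same site. In both genes no peak stood far above the rest: the strongest was 1.05 times the second at ced-1 and 1.15 times at ced-6.

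ced-7 (chromosome III, 9570390 to 9580089, minus strand), the ABC transporter gene, came closest to the threshold. A peak in an intron, 694 bp from the 3′ end of the gene, was in the pooled list with a −log10 IDR of 2.04 and was left out of the conservative list, where it had 1.91. Its signals were 34.5 and 39.4, or 0.396 and 0.590 times the median peak (mean 0.493 ± 0.137 SD, n = 2). Just inside the conservative threshold stood the psr-1 peak at 2870 bp, with 2.28. No peak of that ranked list lay in the promoter window of ced-7. The replicates' own ranked lists did hold one there, with a signal of 46.5 at -635 bp in replicate 1 and 30.7 at -627 bp in replicate 2, and −log10 IDR values of 0.713 and 0.173. In replicate 1 this was stronger than the intron peak, and in replicate 2 it was weaker. ttr-52 (chromosome III, 13404718 to 13405783, plus strand), the gene of the secreted bridging protein, had no peak within 2000 bp in any of the 8 lists. The same was true of 26.1% of protein-coding genes. In the ranked list behind the conservative list, 9 of the 10 members had a peak within 2000 bp, against 60.7% of protein-coding genes, and the median protein-coding gene had 3 such peaks. The same 9 of 10 were found in the ranked list behind the pooled list (62% of protein-coding genes) and in those of replicate 1 (67.8%) and replicate 2 (64%). A summit of any rank in the promoter window was listed at 8 members behind the conservative list (42% of protein-coding genes) and 8 behind the pooled list (43.2%). The replicates' ranked lists had 9 in replicate 1 (41.4%) and 8 in replicate 2 (39.6%). The searched length differed between members, from 5.07 kb for ttr-52 to 22.4 kb for abl-1.

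The sequences under the peaks differed. GAGCG, on either strand, was found within 50 bp of the summit in 1 of the 6 peaks, that of abl-1, 7 bp from the summit. It was present in 31.8% of the windows that reach 50 bp to each side of the conservative summits and in 7.99% of windows of the same length 1000 bp to either side. TTTGAA, the core of the cell cycle element bound by LIN-54, was found in 1 of the 6 windows, that of ced-2 and npp-8, 28 bp from the summit, against 16.6% of all summit windows and 24.4% of the flanking ones. The E2F-type motifs GCGGGAA and TTTCCCGC were in none of the 6 windows, and in 3.38% and 1.87% of all summit windows. Every TTTCCCGC match is also a GCGGGAA match on the opposite strand. Outside these windows, the whole peak of ced-2 and npp-8 (308 bp) held 1 GCGGGAA. The whole psr-1 peak at 630 bp held 1 TTTGAA. In the 300 bp promoters, from 250 bp upstream to 50 bp downstream, GAGCG was in those of ced-2, ced-10 and abl-1 (19.1% of all promoters). TTTGAA was in those of ttr-52, ced-6 and abl-1, 3 of 10 members against 62.5% of all promoters. GCGGGAA and TTTCCCGC were both in that of ced-2, with 1 match each and so at the same site (3.22% and 1.57% of all promoters). No match says only that these letters are not in the window.

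The peaks of ced-5 and of ced-2 with npp-8 shared the run ACTCCTCTCGGA, in capitals above. It was the longest run shared by any pair of the 6 peaks, with 12 letters, together with CCCGGAAAACTT, shared by the ced-2 peak and the psr-1 peak at 630 bp. These runs were chosen after the sequences were compared, and each count of peaks includes the pair that the run was taken from. ACTCCTCTCGGA was found in 45 of 3903 conservative peaks (1.15%) and in 7 of 7806 stretches of the same lengths 1000 bp to either side (0.0897%), and in 0.275% of promoters. CCCGGAAAACTT was found in 2 of 3903 peaks (0.0512%), the pair it was taken from, and in 2 of 7806 flanking stretches (0.0256%). The GC content of the 6 windows ranged from 44.6% to 67.3%, around the median of 49.5% over all summit windows, while promoters had a median of 34.3%.

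For each called member, the nearest genes in value were picked among 1809 genes with a promoter-proximal peak and a symbol. Distance was measured over the 2 replicates' log2 multiples. They were picked for being nearest, so the short distances follow from the choice. Those nearest to ced-5 were cdk-9 and hxk-2, which share a peak (1.24 and 1.37 times the median, distance 0.037). Those nearest to abl-1 were imp-3 (0.049) and rpl-23 (0.062), and those nearest to psr-1 were mlk-1 (0.043) and clec-123 (0.062).

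Genes of related processes were taken from 3 lists of 74 genes in all, of which 25 had a promoter-proximal conservative summit. Whether each listed gene acts in engulfment was not tested. Among 10 genes of phosphatidylserine exposure and corpse recognition, 1 did (10%), against 13.2% of all protein-coding genes. This was wah-1, the AIF homologue, at 0.582 and 0.638 times the median peak. The 9 without one were ced-8, tat-1, chat-1, scrm-1, anoh-1, nrf-5 and the integrin genes ina-1, pat-2 and pat-3. Among 22 genes of Rac signalling and actin assembly 8 did (36.4%, against 13.2%), 6 of them with the nearest 5′ end (9.73% of all protein-coding genes). Strongest were wip-1, the WASP-interacting protein gene (7.99 and 8.26 times the median), and wve-1, the WAVE gene (7.73 and 8.45, though R06C1.4 had its 5′ end nearer). Next came gex-3, a WAVE complex subunit gene (7.02 and 6.44), the Arp2/3 genes arx-6 (3.06 and 2.62), arx-2 (1.1 and 1.06) and arx-3 (0.710 and 0.587). abi-1, the WAVE complex subunit through which ABL-1 is known to act, had 0.574 and 0.560 times the median, at a summit nearer to arle-14. The other Rac genes of the list, mig-2 and rac-2, had no such summit, nor had the exchange factor gene unc-73.

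Among 42 genes of phagosome formation and maturation 16 had such a summit (38.1%, against 13.2% of all protein-coding genes), 14 of them with the nearest 5′ end (9.73% of all protein-coding genes). The strongest was vps-39, a subunit gene of the HOPS tethering complex, at 26.1 and 24.4 times the median peak. The gene of the late phagosomal GTPase rab-7 had 11.4 and 12, at a summit nearer to W03C9.5, and the lipid kinase gene ppk-3 had 9.37 and 9.49. Then came the sorting nexin gene snx-1 (3.78 and 4.02), lst-4 (4.56 and 2.36) and the epsin gene epn-1 (3.44 and 3.30). The early GTPase gene rab-5 had 1.62 and 1.07, and the dynamin gene dyn-1, which acts with ced-1 and ced-6, had 1.17 and 1.14. The median of the called genes was 2.4 times the median peak in this list and 1.96 in the Rac and actin list, with ranges of 0.836 to 25.3 and 0.530 to 8.13. Among all 2636 protein-coding genes called, 1800 had such a summit with a deposited signal at or above the conservative median. In the 3 lists together this held for 19 of the 25 called genes. The median multiple over all called genes was not computed. Of the members' promoter peaks, psr-1 (0.675) lay below the lowest called gene of the phagosome list, and ced-5 (1.33) and abl-1 (1.54) lay below the medians of both lists. The shares of the lists and that of all genes were not tested against each other.

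**Figure D4:**
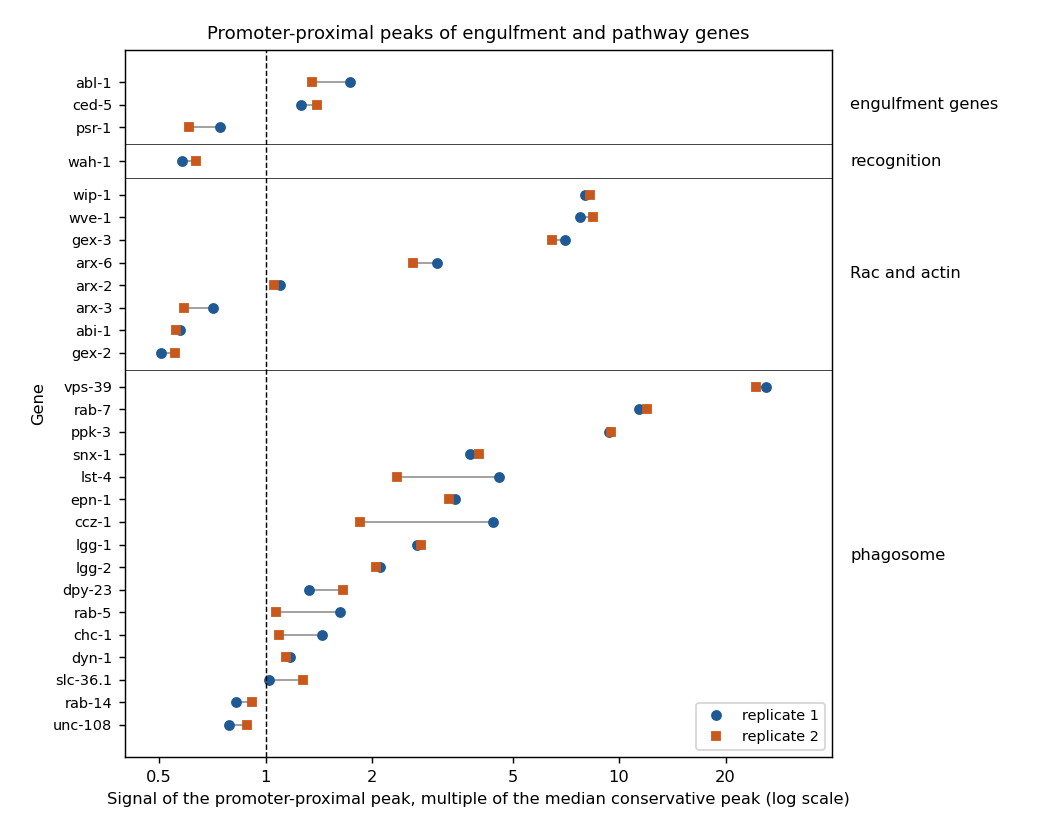
Signal of the strongest promoter-proximal conservative peak of each called gene as a multiple of the median conservative peak, on a log axis, with circles for replicate 1 and squares for replicate 2 and 1 row per gene. The 3 engulfment genes lie between 0.608 and 1.73, while vps-39, rab-7 and ppk-3 of the phagosome list lie above 9 in both replicates.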

How the data were processed

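The data were ChIP-seq peak lists of 2 replicates of 1 group. The authors deposited a conservative and a pooled list made from both replicates, 1 list per replicate, and a longer ranked list for every one of them, on ce11, per the deposited file descriptions. Aligner and peak caller: not given in the sources used here. Signal, a value the authors deposited for each peak, is the peak caller's measure, on a scale that is not given. The score the authors deposited takes whole values, at most 1000, and rises as the IDR falls; every thresholded list holds scores of 830 or more. The −log10 IDR that the authors deposited in the ranked lists is capped at 5. The series' ranked lists hold 4 signal columns with no sample name, which were not used.

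Every peak on the 6 nuclear chromosomes ended inside RefSeq's WBcel235, and gene models were from Ensembl release 115. The 5′ end was the outermost annotated start. For each replicate, the signal came from its own ranked list, from the peak with the nearest summit among those sharing at least 1 bp, divided by its median over the conservative peaks, of which 3860 had a value in both replicates. Where replicate summits lie apart, an overlapping peak can be another site. Values are mean ± SD. The error covers the spread of these 2 samples, and single peaks have no interval because depth is unknown. The assignment of peaks was checked on simulated peaks. No test was made, because there is 1 group. Alternatives varied the list, the threshold, the window, the assignment, the scaling and the matching. All 10 members were named, as were nearer neighbours, up to 6 called genes with the strongest peak in each list, and the 2 genes nearest in value to each called member. Where abi-1, rab-5, dyn-1 or genes without a summit are named beyond that rule, they were chosen for their role or after their values were seen. The members, the lists and the motif GAGCG were chosen with earlier results of these data known. Python 3.11.15, numpy 2.4.6, pandas 2.3.3 and matplotlib 3.10.9 were used.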

Additional observations from a re-analysis of the deposited data

How the results depend on the processing

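The count of members with a promoter-proximal summit, 3, ranged from 2 to 4 over the 10 alternatives run, while the share of all protein-coding genes called moved with it, from 9.01% to 16.5%. It was 2 to 3 with each replicate's own list, psr-1 being the gene lost without replicate 1. psr-1 was also lost with 500 bp upstream, with the nearest 5′ end and with a minimum at the median signal, and ced-2 was gained with 2000 bp upstream. The count of members with a conservative peak within 2000 bp, 4, was 1 at a distance of 0 bp (9.91% of all protein-coding genes), where psr-1 alone remained because the other peaks lie outside their genes, and 3 to 5 otherwise (16.6% to 27.8%); without either replicate it was 4. The median multiple over the 6 peaks, 1.09, was 1.22 when scaled by the pooled list, 0.882 by each replicate's own thresholded list, 1.07 with the highest overlapping peak and 0.873 with a reciprocal overlap of 50%, under which ced-5 had no value. It was 1.08 to 1.09 when either replicate was left out. The 25 called genes of the pathway lists became 19 to 30, while 9.01% to 16.5% of all protein-coding genes were called. Without either replicate they were 20 to 24, against 10.8% to 12.4%. These alternatives were chosen after seeing the data. So were a narrower and a wider motif window, with which the count of 1 peak with GAGCG was the same. No paired analysis was possible because the replicates form 1 group. Depth is unknown, so a gene without a listed peak may be bound below what these lists record.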

Other observations

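The same weak promoter peak could stand at different ranks of reproducibility in the lists of the series. The ced-10 peak at 65 bp had a −log10 IDR of 1.22 in the ranked list behind the pooled list and 0.233 in that behind the conservative list. The ced-1 peak at 131 bp went the other way, with 0.220 and 0.970. Neither reached the threshold of 2 in either list.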
